A study of Mus musculus with 6 samples.

Results

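The collapsin response mediator proteins (CRMPs) were read by 11 probe sets on these arrays, out of 45037 probe sets tested. A probe set is the group of short probes that measures one transcript. The members were all probe sets that the platform annotation assigns to exactly 1 of the 5 genes Crmp1, Dpysl2, Dpysl3, Dpysl4 and Dpysl5. These genes were chosen with earlier results of these data known, and all their probe sets were then taken whatever their values. Crmp1 had 1 probe set, Dpysl2 and Dpysl5 had 2 each, and Dpysl3 and Dpysl4 had 3 each.

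The arrays were hybridised with RNA from mouse brain cells that the labels call NSP, without spelling the abbreviation out. In the REST shRNA group, 3 samples had received a lentivirus with a short hairpin RNA against REST, a zinc finger repressor of neuronal genes. In the control shRNA group, 3 samples had received a lentivirus with a control hairpin. In both groups whole brains of E12.5 embryos were taken apart, the cells were cultured to confluence and split, and the virus was left on overnight, followed by 6 days of regrowth. The labels give no strain, hairpin sequence or promoter for the hairpins, and do not tie the 3 samples of a group to separate embryos or cultures. The p-values below therefore cover the spread among these arrays, some or all of which may be technical.

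CRMPs are cytosolic phosphoproteins of the nervous system, related in sequence to the enzyme dihydropyrimidinase. They bind tubulin and act on the assembly of microtubules, and they carry the signal of class 3 semaphorins from neuropilin and plexin receptors to the growth cone, where Cdk5 and GSK3 beta phosphorylate them. Their transcripts are best known from newborn neurons that extend axons, although Dpysl2 and Dpysl3 are also found in other cells of the developing brain.

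Of the 11 probe sets, 2 stood apart between the groups. The single probe set of Crmp1 and the brighter one of Dpysl5 read about 1.82-fold and 2.13-fold higher with REST shRNA, and in both the values of the groups did not overlap. The brightest probe sets of Dpysl2, Dpysl3 and Dpysl4 differed by 0.02, 0.05 and 0.03 on the log2 scale, less than the spread between arrays. None of the 11 was called at an adjusted p under 0.05 (limma, adjusted p = 0.9998 for each), in a table where 0% of probe sets were called in either direction. At an unadjusted limma p under 0.05, 2 of the 11 were higher and 0 lower, against 1.54% and 1.93% of all probe sets. Groups that did not overlap, with REST shRNA higher, were found for 2 of the 11 and for 4.35% of all probe sets, and with REST shRNA lower for 0 of the 11 and for 3.90% of all.

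A few facts of the arrays bear on these values. Rest, the targeted transcript, read 8.63, 7.70 and 8.20 in REST shRNA arrays 1, 2 and 3 by its brightest probe set, against 8.92, 8.75 and 8.90 in control arrays 1, 2 and 3 (log2 signal). All 4 Rest probe sets were lower with REST shRNA without overlap. The brightest read 62.5% of control (exact permutation p = 0.1, unadjusted limma p = 0.0298, adjusted p = 0.9998). All 10 neural progenitor markers and all 12 neuron markers had a mean over the 6 arrays above 3.24. That is the highest log2 signal of 27 bacterial control probe sets and here the reference for background. Only 2 of 7 microglia markers and 1 of 5 endothelial markers had such a mean. Of 6 markers of meningeal fibroblasts and pericytes, 5 did. The brightest of them, Pdgfrb, read 5.39 to 6.70 with REST shRNA and 5.70 to 6.05 in control. REST shRNA array 2 stood apart: the summed signal of 8 astrocyte markers was 3742 there, against 12633 to 13499 in the other REST shRNA arrays and 9801 to 11940 in the control arrays. The 3′ minus 5′ signal of Gapdh, a sign of RNA quality, was 2.87 on the log2 scale in control array 3 and 1.72 to 2.25 in the other 5 arrays.

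**Figure D1:**
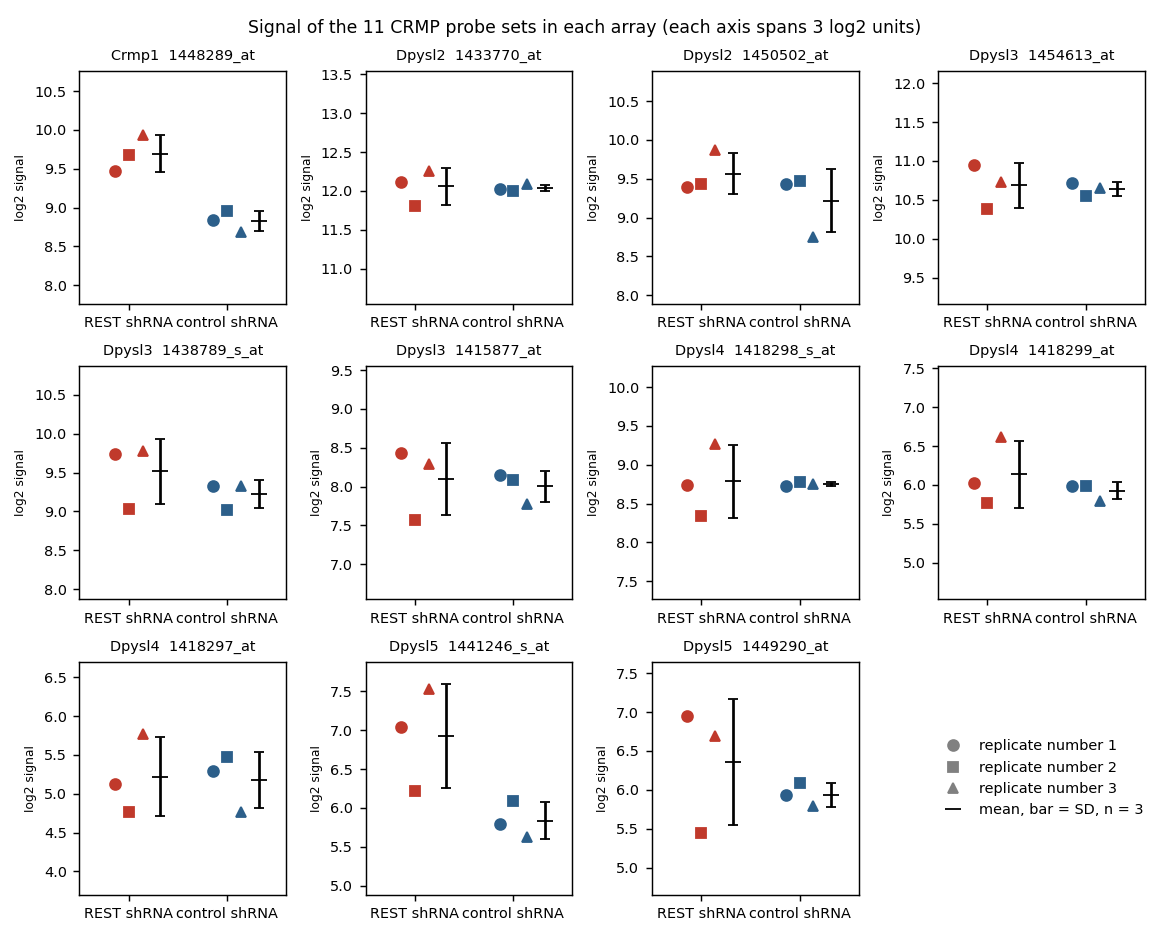
Log2 signal of each of the 11 CRMP probe sets in the 3 REST shRNA arrays (red) and the 3 control shRNA arrays (blue), with the marker shape giving the replicate number and the black mark the mean ± SD (n = 3). Crmp1 and Dpysl5 1441246_s_at show no overlap between the groups, and the other 9 probe sets overlap.

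Crmp1 encodes the first CRMP of the family's numbering, a mediator of semaphorin and Reelin signals in migrating neurons. Its probe set 1448289_at read 9.47, 9.68 and 9.94 in REST shRNA arrays 1, 2 and 3, and 8.84, 8.96 and 8.69 in control arrays 1, 2 and 3, on the log2 scale. All 3 REST shRNA arrays lay above all 3 control arrays. The means were 9.70 ± 0.23 with REST shRNA and 8.83 ± 0.13 in control (SD, n = 3 each). The difference was 0.87 ± 0.18 (SE, log2), which is 1.82-fold with a 95% interval of 1.36 to 2.45. The unadjusted limma p was 0.00199, the 58th smallest p among the 45037 probe sets, and the exact two-sided permutation p was 0.1, the smallest that 3 against 3 arrays allow. The difference within replicate numbers 1, 2 and 3 was 0.63, 0.73 and 1.24. It ranged from 0.68 to 0.99 when arrays were left out, with an unadjusted limma p of at most 0.0186. Control array 3, which had the highest Gapdh 3′ minus 5′ signal, was the lowest of the 6 arrays for Crmp1. The Crmp1 difference was 0.80 without that array, and the part of RNA quality in it was not tested.

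Markers of cell types differed between the groups in both directions. Of 12 neuron markers 9 had positive differences, while Map2, Dcx and Elavl4 had negative ones, and the median was 0.66. None was called, and 4 of the 12, Rbfox3, Snap25, Nefl and Gap43, were higher at an unadjusted limma p under 0.05. Over all genes by their brightest probe sets, 57.2% had positive differences, the median was 0.04, and 1.69% were higher at that threshold. The marker lists were chosen with earlier results of these data known. The summed signal of the 12 was 5168 to 7299 with REST shRNA and 4187 to 5111 in control. Progenitor markers had a negative difference for 8 of 10, with summed signals of 18024 to 21218 with REST shRNA and 21439 to 22582 in control. The difference was negative for all 8 astrocyte markers, at a median of -0.44. Their summed signal was low in REST shRNA array 2 alone, at 3742. It was 13499 and 12633 in REST shRNA arrays 1 and 3, above the 9801 to 11940 of the control arrays. Of the 8 markers 1, Slc1a2, was lower with REST shRNA without overlap, and so was 1 of the 10 progenitor markers, Sox2. Over all probe sets 3.90% were lower without overlap. Crmp1 differed from the neuron sum in REST shRNA array 2. There Crmp1 lay 0.85 above its control mean on the log2 scale. The summed neuron markers, of which Map2, Dcx and Tubb3 had the highest control means, lay 0.19 above their own. That contrast holds for the sum and not for every marker: Snap25 read 9.02 in that array against a control mean of 7.54, Nefl 8.47 against 5.50, and Gap43 10.22 against 8.53, all larger gaps than that of Crmp1. In a bulk culture a larger number of neurons and more Crmp1 RNA per neuron cannot be told apart, and the part of these cell types in the Crmp1 difference was not tested.

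Dpysl5 encodes CRMP5, which is related more distantly to the others and is known to inhibit neurite outgrowth promoted by its relative CRMP2. Its brighter probe set 1441246_s_at read 7.04, 6.21 and 7.54 in REST shRNA arrays 1, 2 and 3, and 5.79, 6.10 and 5.62 in control arrays 1, 2 and 3. REST shRNA arrays 1 and 3 lay far above the control arrays, while REST shRNA array 2 cleared the highest control array by little. The means were 6.93 ± 0.67 with REST shRNA and 5.84 ± 0.24 in control (SD, n = 3 each). The difference was 1.09 ± 0.34 (SE, log2), or 2.13-fold with a 95% interval of 1.22 to 3.73 (unadjusted limma p = 0.0150, exact two-sided permutation p = 0.1). Here too control array 3, with the highest Gapdh 3′ minus 5′ signal, was the lowest of the 6 arrays. The difference was 0.98 without that array, and the part of RNA quality in it was not tested.

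The other Dpysl5 probe set gave a smaller difference. Probe set 1449290_at read 6.95, 5.44 and 6.70 in REST shRNA arrays 1, 2 and 3, and 5.93, 6.09 and 5.79 in control arrays 1, 2 and 3. Here REST shRNA array 2 was the lowest of the 6 arrays, so the groups overlapped. The difference was 0.42 ± 0.39 (SE, log2), with an unadjusted limma p of 0.309 and an exact permutation p of 0.4. Both Dpysl5 probe sets thus read high in REST shRNA arrays 1 and 3, and they disagreed on array 2. When REST shRNA array 2 was left out, the differences were 1.45 for the brighter and 0.89 for the dimmer probe set (limma, adjusted p = 0.716 and 0.776). They were 1.04 and 0.13 when REST shRNA array 1 was left out, and 0.79 and 0.26 when REST shRNA array 3 was. The mean of both probe sets differed by 0.76. The brighter probe set kept an unadjusted limma p under 0.05 in 15 of 19 alternatives. It lost it in the mean over the gene's probe sets, without control array 3 (difference 0.98), without the pair numbered 1 (1.02) and without the pair numbered 3 (0.68).

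**Figure D2:**
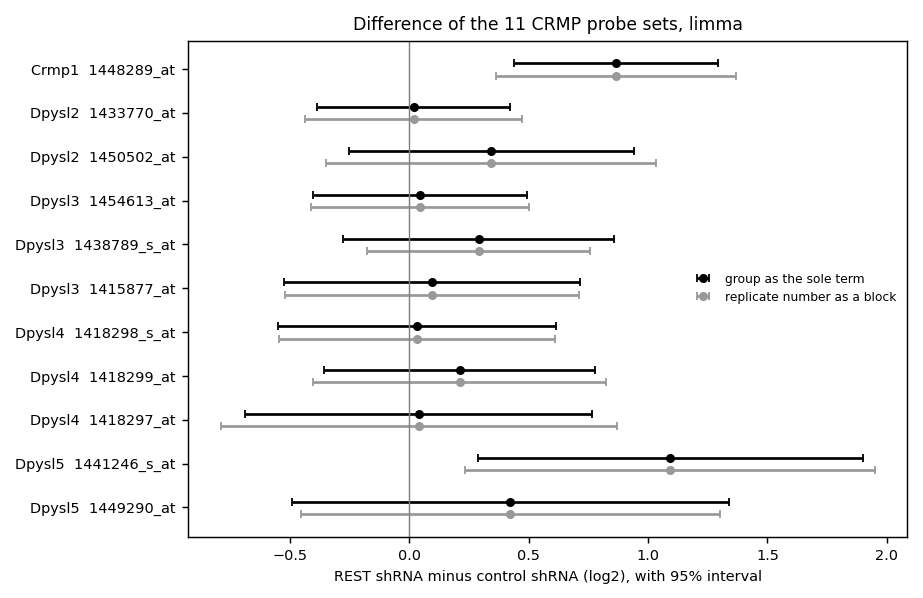
Difference between REST shRNA and control shRNA (log2) for each of the 11 CRMP probe sets, with 95% intervals from limma, fitted with the group alone (black) or with the replicate number added as a block (grey). The intervals of Crmp1 and of Dpysl5 1441246_s_at lie above 0 in both fits, and those of the other 9 probe sets include 0.

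The upstream sequence of the members with the larger differences is shown because REST acts through a DNA element, RE1, near its targets. Starts were taken from the RefSeq promoter table (GRCm38.p6) on the plus strand only, with 1 chromosome left out. Under that choice 2 of the 5 genes were matched, Crmp1 with 2 listed transcription starts and Dpysl5 with 1. Starts outside that choice were not looked at, so the unmatched genes are not shown to lack one. The windows are the 250 bases before each start, on the plus strand, at chr5:37241808-37242057 and chr5:37245514-37245763 for Crmp1 and at chr5:30711314-30711563 for Dpysl5. Capitals mark GC boxes, GGGCGG or its complement CCGCCC, and the right half-site of RE1, GGACAG or its complement CTGTCC.
Crmp1, upstream start: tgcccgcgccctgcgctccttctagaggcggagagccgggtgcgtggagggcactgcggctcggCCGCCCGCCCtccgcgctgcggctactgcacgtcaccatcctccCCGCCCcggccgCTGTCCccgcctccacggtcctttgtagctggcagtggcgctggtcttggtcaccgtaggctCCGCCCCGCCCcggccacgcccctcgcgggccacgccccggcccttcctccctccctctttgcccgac
Crmp1, downstream start: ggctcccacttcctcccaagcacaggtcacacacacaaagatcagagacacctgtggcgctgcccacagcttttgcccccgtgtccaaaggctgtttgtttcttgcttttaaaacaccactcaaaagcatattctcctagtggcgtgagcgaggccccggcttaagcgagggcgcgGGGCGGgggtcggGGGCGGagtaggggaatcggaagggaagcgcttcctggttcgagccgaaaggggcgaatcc
Dpysl5: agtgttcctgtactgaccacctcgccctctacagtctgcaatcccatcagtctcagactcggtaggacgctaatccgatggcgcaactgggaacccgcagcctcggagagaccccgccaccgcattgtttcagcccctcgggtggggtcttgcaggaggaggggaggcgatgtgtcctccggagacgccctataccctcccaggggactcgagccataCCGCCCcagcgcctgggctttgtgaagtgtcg

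The letters CAGCACC of the left half-site of RE1, searched on both strands, were in none of the 3 windows and in 5.73% of the 32851 windows of all listed starts. The right half-site GGACAG stood once in the window of the upstream Crmp1 start, 130 bases before that start at its first base, and in 18.7% of all windows. The joined form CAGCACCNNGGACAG, which holds both half-sites, was in none of the 3 windows and in 0.0335% of all windows. GC boxes numbered 5 in the upstream Crmp1 window, where some overlap each other, 2 in the downstream one and 1 in that of Dpysl5. At least 1 was in 32.7% of all windows. The upstream Crmp1 window was 75.6% G or C with 30 CpG dinucleotides, the downstream one 59.6% with 16, and that of Dpysl5 62.8% with 17. Over all windows the medians were 52.4% and 6 CpG. A match of letters is a description of these windows, and RE1 elements further away were not searched.

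Dpysl2 encodes CRMP2, the member best known for binding tubulin dimers and for carrying cargo with kinesin in growing axons. Its brightest probe set 1433770_at read 12.114, 11.802 and 12.259 in REST shRNA arrays 1, 2 and 3, and 12.030, 12.004 and 12.083 in control arrays 1, 2 and 3. REST shRNA array 2 was the lowest and REST shRNA array 3 the highest of the 6 arrays, on either side of tight control values. The difference was 0.02 ± 0.17 (SE, log2), with a 95% interval of -0.39 to 0.42 and an unadjusted limma p of 0.914. The other probe set, 1450502_at, read 9.39, 9.43 and 9.87 with REST shRNA and 9.43, 9.47 and 8.76 in control. Only the arrays numbered 3 parted here, one up and one down, and the difference was 0.34 ± 0.25 (SE, log2), with an unadjusted limma p of 0.214. Control array 3, which was low, is the array with the highest Gapdh 3′ minus 5′ signal. The difference of this probe set was 0.11 when that array was left out and -0.04 when the pair numbered 3 was, while the part of RNA quality in it was not tested. Over the 6 arrays the 2 probe sets of Dpysl2 correlated weakly (Pearson r = 0.237, where both values of an array come from the same hybridisation).

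Dpysl3 encodes CRMP4, a member that binds actin filaments as well as tubulin. Its brightest probe set 1454613_at read 10.95, 10.38 and 10.73 in REST shRNA arrays 1, 2 and 3, and 10.72, 10.55 and 10.65 in control arrays 1, 2 and 3. REST shRNA array 1 was the highest and array 2 the lowest of the 6, and the difference was 0.05 ± 0.19 (SE, log2), with a 95% interval of -0.40 to 0.49. Probe set 1438789_s_at read 9.74, 9.04 and 9.77 with REST shRNA and 9.33, 9.02 and 9.32 in control. Within replicate numbers 1, 2 and 3 it differed by 0.41, 0.01 and 0.45, so it is 1 of the 3 CRMP probe sets that were higher in all 3 pairs, beside Crmp1 and Dpysl5 1441246_s_at. Over all probe sets 12.2% were higher in all 3 pairs. Its difference was 0.29 ± 0.24 (SE, log2; exact permutation p = 0.3, unadjusted limma p = 0.264), or 0.53 without REST shRNA array 2 (limma, adjusted p = 0.807). Probe set 1415877_at ranged from 7.57 to 8.44 with REST shRNA and from 7.77 to 8.15 in control, and differed by 0.10 ± 0.26. The 3 probe sets of Dpysl3 followed each other over the 6 arrays, with Pearson r from 0.748 to 0.875.

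Dpysl4 encodes CRMP3, a member of more restricted expression in the brain. Its brightest probe set 1418298_s_at read 8.74, 8.34 and 9.27 in REST shRNA arrays 1, 2 and 3, and 8.73, 8.78 and 8.75 in control arrays 1, 2 and 3. The control arrays lay within a narrow band, SD 0.02, and the REST shRNA arrays lay on it, below it and above it, SD 0.47. The difference was 0.03 ± 0.25 (SE, log2), with a 95% interval of -0.55 to 0.62. Leaving out REST shRNA array 3 gave -0.21, and leaving out REST shRNA array 2 gave 0.26. Probe sets 1418299_at and 1418297_at differed by 0.21 ± 0.24 and 0.04 ± 0.31 (SE, log2), and in both, as in the brightest one, REST shRNA array 2 was the lowest and REST shRNA array 3 the highest of the 6 arrays. The 3 probe sets of Dpysl4 had Pearson r from 0.822 to 0.910 with each other.

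**Figure D3:**
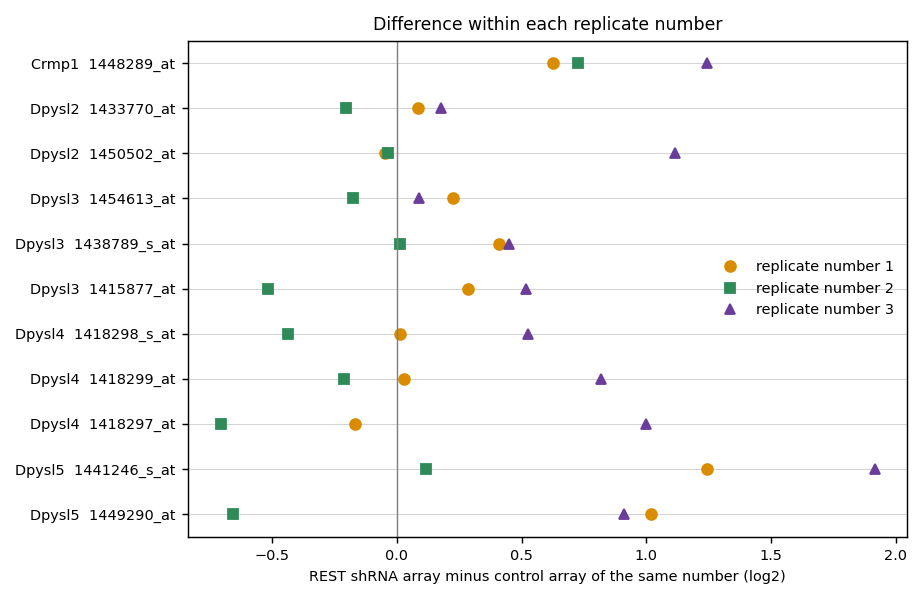
Difference (log2) between the REST shRNA array and the control array of the same replicate number, for each of the 11 CRMP probe sets. In replicate number 3 all 11 probe sets lie above 0, in replicate number 1 9 of them, and in replicate number 2 3 of them.

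Within the replicate numbers the family did not keep one direction. In replicate number 1, 9 of the 11 probe sets were higher with REST shRNA, against 49.6% of all probe sets. In replicate number 2, 3 of the 11 were higher, against 50.3%, and in replicate number 3 all 11 were higher, against 53.2%. Only Crmp1, Dpysl5 1441246_s_at and, by 0.01, Dpysl3 1438789_s_at were higher in replicate number 2. The difference between the group means was positive for all 11, at a median of 0.21 on the log2 scale. Over all probe sets 52.6% were positive, and the median was 0.01. The probe sets of one gene read the same RNA and are not independent of each other. The count of positive differences was 8 without REST shRNA array 1, 6 without REST shRNA array 3 (median 0.02) and 5 without both arrays numbered 3 (median -0.04), so it rests on the arrays numbered 3. It was 11 without REST shRNA array 2, with a median of 0.39.

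REST shRNA array 2 was the lowest of the 6 arrays in 7 of the 11 probe sets, against 24.2% of all probe sets, and REST shRNA array 3 was the highest in 8 of the 11, against 22.5%. Crmp1 was the one gene among the 5 whose brightest probe set placed array 2 above array 1 of the REST shRNA group. Beside the low astrocyte markers, the summed oligodendrocyte lineage markers were low in array 2, at 8358 there, against 13779 and 16851 in REST shRNA arrays 1 and 3 and 11178 to 14070 in control. By group means the brightest genes of that sum are the myelin genes Mbp and Cnp. Its other genes did not read alike in array 2. Olig1 and Olig2, factors of the early lineage, read 11.56 and 10.52 there, their highest of the 6 arrays. Pdgfra and Sox10 read 8.37 and 7.14 there, their lowest of the 6 arrays. Endothelial markers summed to 36.6 to 47.5 with REST shRNA and 40.2 to 42.6 in control, and 4 of the 5, Pecam1, Cdh5, Cldn5 and Tie1, lay at or below the bacterial controls. The part of these cells in the CRMP values was not tested.

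**Figure D4:**
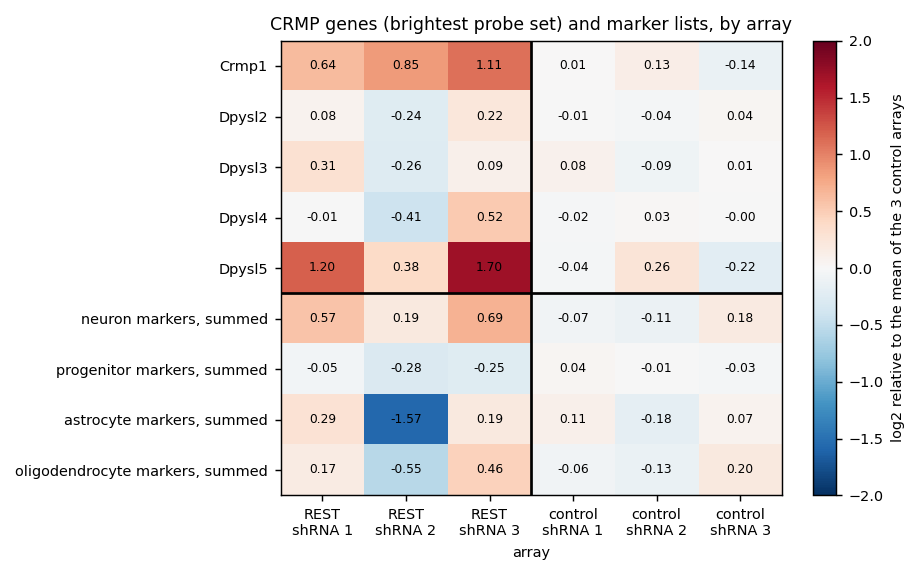
Log2 signal of the brightest probe set of each CRMP gene, and of the summed markers of 4 cell types, in each array relative to the mean of the 3 control arrays. Crmp1 lies 0.64, 0.85 and 1.11 above it in REST shRNA arrays 1, 2 and 3, while the astrocyte sum lies at -1.57 in REST shRNA array 2 alone.

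Whether the members differed in their response was tested within arrays, as the log2 signal of one gene's brightest probe set minus that of another, for all 10 pairs of genes. Crmp1 minus Dpysl2 averaged -2.36 ± 0.27 with REST shRNA and -3.21 ± 0.17 in control (SD, n = 3 each), a shift of 0.85. Crmp1 shifted by 0.82 against Dpysl3 and by 0.83 against Dpysl4. Dpysl2, Dpysl3 and Dpysl4 each shifted by -1.07, -1.05 and -1.06 against Dpysl5. In these 6 pairs the groups did not overlap. Their exact two-sided permutation p was 0.1, the smallest possible, or 0.167 adjusted over the 10 pairs, so none passed 0.05. The pairs with Dpysl5 rest on its brighter probe set alone. Its dimmer probe set, which differed by 0.42 with overlapping groups, was not used in them. Crmp1 and Dpysl5 shifted by -0.23 against each other (exact permutation p = 0.4), and replicate number 2 went the other way, at 0.61. Dpysl2, Dpysl3 and Dpysl4 shifted against each other by at most 0.03 in size, with leave-one-out values between -0.14 and 0.23. A shift within arrays shows an unequal change of the pair and does not say which of its genes changed.

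The genes with the pattern most like each member were looked up among 13831 genes above the bacterial controls. The measure was the Pearson correlation of brightest probe sets over the 6 arrays. Both values of an array come from the same hybridisation and the same group. For Crmp1 the most alike genes were Ptgis, prostacyclin synthase (r = 0.997), Chga, the granin chromogranin A (r = 0.991), and Bsn, the active zone scaffold bassoon (r = 0.990). Their own log2 differences were 0.40, 1.63 and 1.06, and 32 genes in all passed r = 0.95 with Crmp1. For Dpysl5 they were Sema6c, a transmembrane semaphorin (r = 0.997), Dtnbp1, dysbindin (r = 0.993), and Gtpbp6 (r = 0.993). Dpysl2 was followed by Cnnm3, Usp30 and Stxbp2, Dpysl3 by Fam107a, Tsga8 and Kcnk10, and Dpysl4 by Ccdc167, Prr13 and Rnf167, with r from 0.979 to 0.998. Among the members themselves Dpysl2 and Dpysl4 were most alike (r = 0.941), followed by Crmp1 and Dpysl5 (r = 0.855), and Crmp1 and Dpysl3 were least alike (r = 0.0115). With 6 arrays and this many genes, high correlations are common.

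The genes around the CRMPs were taken as 7 lists of ligands, receptors, signalling proteins, kinases, phosphatase and calpain subunits, binding partners and relatives of dihydropyrimidinase. Of 63 genes, listed with earlier results of these data known, 59 were measured. None was called (limma, adjusted p over all probe sets), and at an unadjusted p under 0.05, 5 were higher and 0 lower, against 1.69% and 1.04% of all genes by their brightest probe sets. With the replicate number as a block, 4 were higher and 1 lower, against 2.18% and 1.36% of all genes, because Sema3c no longer passed and Sema3a did. The median difference was 0.03, against 0.04 over all genes, and 31 of the 59 were positive, against 57.2% of all genes.

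Among 9 ligands, 6 had a positive difference. Sema3a, the ligand whose growth cone collapse named the family, read 5.88, 7.00 and 4.21 in REST shRNA arrays 1, 2 and 3, and 7.18, 7.43 and 6.48 in control arrays 1, 2 and 3. It was lower with REST shRNA in each replicate number, with overlapping groups and a difference of -1.33 ± 0.67 (SE, log2; exact permutation p = 0.2, unadjusted limma p = 0.0866), and -0.59 without REST shRNA array 3. With the replicate block the limma p of Sema3a was 0.00943. Its 2 other probe sets differed by -0.59 and -0.17. Sema3c, another class 3 semaphorin, differed by 0.51 ± 0.18 (exact permutation p = 0.1, unadjusted limma p = 0.0274), at signals below the bacterial controls. Its other probe set, at a mean signal of 2.53, differed by 0.78 (exact permutation p = 0.1, unadjusted limma p = 0.0426).

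Of 10 receptor genes, 7 had a positive difference. Plxna2, a plexin that transmits semaphorin signals, read 7.74, 8.16 and 7.83 with REST shRNA and 7.04, 6.86 and 6.98 in control, without overlap. It was 1.93-fold higher (log2 difference 0.95 ± 0.17, SE; exact permutation p = 0.1, unadjusted limma p = 0.000910), and its 3 other probe sets differed by 0.57, 0.57 and 0.55. L1cam, an adhesion molecule that joins neuropilin in the semaphorin receptor, read 5.81, 4.39 and 6.33 with REST shRNA and 3.59, 3.97 and 4.31 in control. As in Dpysl5, array 2 was the lowest of the REST shRNA arrays, just above the highest control array, and the difference was 1.55 ± 0.49 (exact permutation p = 0.1, unadjusted limma p = 0.0158). The other L1cam probe set differed by 0.99 (exact permutation p = 0.1, unadjusted limma p = 0.0326). Nrp1, the neuropilin that binds Sema3a, differed by -0.65 ± 0.34 (exact permutation p = 0.2, unadjusted limma p = 0.0951), and by -0.30 without REST shRNA array 2. Its other 3 probe sets differed by -0.80, -0.76 and -0.31 (exact permutation p = 0.1, 0.1 and 0.2, unadjusted limma p = 0.0284, 0.0123 and 0.151). Plxna1, its plexin partner, differed by 0.10 ± 0.18.

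Of 11 kinase genes, 7 had a positive difference. Cdk5r2, the p39 activator of Cdk5, read 8.06, 9.14 and 8.07 with REST shRNA and 7.26, 7.17 and 6.49 in control, without overlap. It was 2.73-fold higher (log2 difference 1.45 ± 0.36, SE; exact permutation p = 0.1, unadjusted limma p = 0.00493), while a second, dim probe set differed by 0.13. Cdk5 itself and its other activator Cdk5r1 differed by 0.09 ± 0.25 and 0.00 ± 0.39, and their signs turned with the arrays left out, from -0.28 to 0.28 and from -0.33 to 0.55. Gsk3b was lower in each replicate number, at -0.21 ± 0.15 (exact permutation p = 0.2, unadjusted limma p = 0.219), and its 5 other probe sets also had negative differences, from -0.94 to -0.20. The one at -0.94 had an exact permutation p of 0.1 and an unadjusted limma p of 0.0101. The rest of the 5 had an unadjusted limma p from 0.095 to 0.254.

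Of 10 binding partners, 4 had a positive difference. Cacna1b, the pore subunit of N-type calcium channels to which CRMP2 binds, read 7.11, 7.50 and 7.03 with REST shRNA and 5.99, 6.10 and 5.75 in control, without overlap. It was 2.41-fold higher (log2 difference 1.27 ± 0.19, SE; exact permutation p = 0.1, unadjusted limma p = 0.000325), with its other probe sets at 1.42, 0.87 and 0.36. The remaining lists held no gene with an unadjusted limma p under 0.05. Of 10 signalling genes 4 were positive, with the smallest p for the kinase Fes, at 0.28 ± 0.15. Its control arrays read 3.02 to 3.19, below the bacterial controls. Of 5 phosphatase and calpain genes none was positive, with Ppp2r2b at -0.25 ± 0.33, which was -0.57 without REST shRNA array 1 and 0.0748 without the pair numbered 2. Of the 4 relatives of dihydropyrimidinase 3 were positive, with Dpyd, the first enzyme of pyrimidine breakdown, at 0.62 ± 0.27. The mean of Dpyd over the 6 arrays was below the bacterial controls, although REST shRNA arrays 1 and 3 read 3.75 and 3.55.

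**Figure D5:**
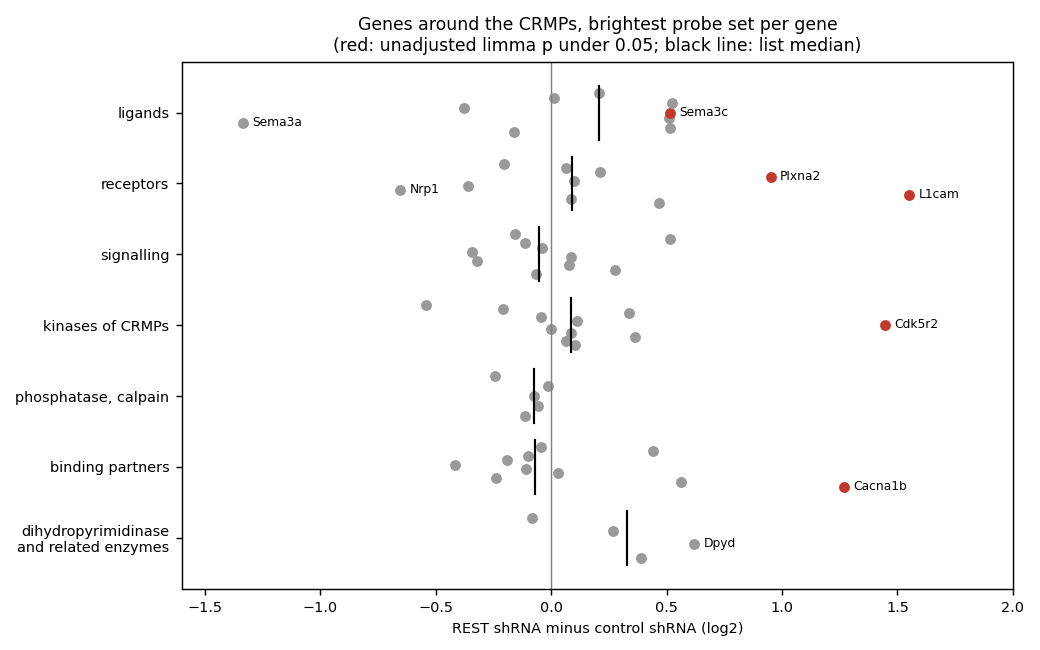
Difference between REST shRNA and control shRNA (log2) for the 59 measured genes around the CRMPs by their brightest probe set, in 7 lists, with red points at an unadjusted limma p under 0.05 and black lines at the list medians. The 5 red points, Sema3c, Plxna2, L1cam, Cdk5r2 and Cacna1b, all lie above 0, while the medians lie between -0.08 and 0.33.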

How the data were processed

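RNA was prepared with Trizol, and amplified cDNA was biotin-labelled with an Encore module, per the labels' protocols. The deposited table holds 1 value per probe set and array in log2 units, which were read from their range, 1.00 to 14.2. No source used here gives the background correction, probe summary or normalization. The array medians were 4.89 to 4.96, so no further scaling was applied. Such a table shows differences relative to the other transcripts of an array, and signals near background understate them. Of 45101 probe sets, 64 control probe sets were left out of the test.

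Names of probe sets are those of the platform annotation, with gene numbers looked up in a RefSeq table (GRCm38.p6, names only): 34958 had 1 gene, 932 several and 9211 none listed. The brightest probe set of a gene has the highest mean over all 6 arrays. Levels were not compared between probe sets.

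Differences were tested with limma 3.58.1 under R 4.3.3 (lmFit and eBayes, group as the sole term, two-sided), with Benjamini-Hochberg adjustment over 45037 probe sets, and it was tested on simulated data. With 3 arrays per group, exact permutation tests cannot go below 0.1. The arrays' number limits the precision.

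Across probe sets, each array's deviation from its group mean correlated with that of its same-numbered partner at 0.117, 0.282 and 0.402 for numbers 1, 2 and 3. The numbers in the titles were used as pairs for the differences within replicate numbers and in the block fit. The main fit did not use them. REST shRNA array 2 correlated with control array 1 at 0.231, more than array 1 of its group did. The replicate block was an alternative, as were other scalings, filters, variance models, array weights, 1 value per gene and leaving out arrays.

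The member genes, gene lists and marker lists were chosen with earlier results of these data known. All probe sets of the member genes were then taken by annotation, whatever their values. Named pathway genes are those with an unadjusted p under 0.05 in a list, or the smallest p, plus Sema3a, Nrp1, Plxna1, Cdk5, Cdk5r1 and Gsk3b. For likeness, the 3 genes of highest correlation are named per member.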

Additional observations from a re-analysis of the deposited data

How the results depend on the processing

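No CRMP probe set and no other probe set passed an adjusted limma p of 0.05 under any of the alternatives run, and the smallest adjusted p of a member was 0.716. With the replicate number as a block (paired fit) no call at the adjusted threshold changed: the unadjusted limma p was 0.00568 for Crmp1 and 0.0206 for Dpysl5 1441246_s_at. The differences of Crmp1 (0.68 to 0.99), Dpysl5 1441246_s_at (0.68 to 1.58), Dpysl5 1449290_at (0.13 to 0.96) and Dpysl3 1438789_s_at (0.16 to 0.53) kept their sign under every alternative, and Crmp1 alone kept an unadjusted p under 0.05 in all 19. The other 7 probe sets changed sign when arrays were left out. Their leave-out ranges were -0.0814 to 0.15 and -0.0406 to 0.54 for Dpysl2 1433770_at and 1450502_at, -0.0841 to 0.20 and -0.12 to 0.40 for Dpysl3 1454613_at and 1415877_at, and -0.21 to 0.27, -0.0923 to 0.42 and -0.44 to 0.42 for Dpysl4 1418298_s_at, 1418299_at and 1418297_at, the last also at -0.026 with array weights. The shifts between members ran from -0.10 to 0.0755 for Dpysl2 minus Dpysl3, -0.11 to 0.13 for Dpysl2 minus Dpysl4 and -0.14 to 0.23 for Dpysl3 minus Dpysl4. Positive differences numbered 5 to 11 of 11 when arrays were left out. At an unadjusted p under 0.05, 692 probe sets were higher and 868 lower. These counts were 1318 and 1243 with array weights, 1434 and 1346 with REST shRNA array 2 left out, 1346 and 1367 with REST shRNA array 1 left out, 324 and 513 with control array 1 left out, and 450 and 798 with control array 2 left out. Centring each array on its median gave 899 and 675. With fewer rows tested they were 288 and 357 in the probe sets above the median signal, 452 and 594 above the bacterial controls, 323 and 195 for the brightest probe set per gene, and 345 and 193 for the mean per gene. Where no arrays or rows were left out, the cause was not tested. With 3 arrays per group, the 95% interval of a CRMP probe set spanned at least 0.81 log2 units.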
